A study of Rattus norvegicus and Ovis aries with 113 samples.

Results

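The 10 genes described here encode chaperones of the heat shock protein 70 (HSP70) and 90 (HSP90) families. They were taken by name, as upper-cased symbols, from the 38675 genes of a rat count table and the 31304 genes of a sheep count table. HSPA1L, HSPA2 and HSPA4L, which are known from male germ cells, were set against the other 7, HSPA4, HSPA5, HSPA8, HSPA9, HSP90AA1, HSP90AB1 and HSP90B1. Bulk RNA was sequenced from brain and a reproductive sample of untreated animals, and the study's title asks which genes link the nervous and reproductive systems. The sheep were 5 post-pubertal males, numbered 687, 688, 690, 694 and 699, each with sperm and 10 brain regions of the same hemisphere. The rats were Sprague Dawley, an outbred laboratory stock: 15 post-pubertal males gave whole brain and seminal fluid labelled as sperm, and 14 females gave whole brain and ovary. Each library came from a separate animal within its group, and 55 sheep and 58 rat libraries were used.

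HSP70 proteins bind unfolded stretches of other proteins and release them in a cycle of ATP hydrolysis, which J-domain proteins start and nucleotide exchange factors reset. HSP90 proteins act later, on nearly folded clients such as kinases and steroid receptors, with the help of co-chaperones. Each compartment has its own members: HSPA8, HSP90AA1 and HSP90AB1 work in the cytosol, HSPA5 and HSP90B1 in the endoplasmic reticulum (ER), and HSPA9 in mitochondria. HSPA2 and HSPA1L are known from meiotic and later male germ cells, and HSPA4L, a relative of the exchange factor HSPA4, is abundant in testis. Sperm are nearly silent in transcription, so the RNA they carry was made earlier.

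Library totals ran from 13.7 to 119 M (1000000) counts. In sheep sperm, 4 entries with placeholder names held 22.4 to 85.2% of the counts, and the factors of the trimmed mean of M values (TMM) that scale these libraries were far below those of brain. All levels below are TMM-scaled counts per 1000000 (CPM) unless plain library totals are named, and they are compared between samples of a gene, not between genes. Ribosomal RNA entries held 2.68 to 86.9% of counts in female rat brain and 2.39 to 83.1% in male rat brain. The sperm libraries held late spermatid messages: 12 of 12 listed markers, such as PRM1, TNP1 and ODF1, were higher than in brain in each species (9 of 12 in sheep on plain totals). They also held messages of other cells. In rat sperm 6 of 6 tested epididymis markers were higher than in brain (summed level 1826 to 25069 CPM, against 0.610 to 1.59 CPM in male brain). Few markers carried this sum in library 10, which had 20111 CPM at a mean log2(CPM + 1) of 2.84 over the list. In sheep sperm 6 of 6 tested stratified squamous markers were higher (4953 to 93415 CPM, at most 4.02 CPM in brain). The part these cells had in the differences below was not tested, and in bulk RNA fewer cells of a type and less RNA per cell cannot be told apart.

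In rat sperm the germ-cell members HSPA1L and HSPA2 and the ER members HSPA5 and HSP90B1 rose against male brain, and HSP90AA1 fell. These were 5 of 10 members called by edgeR's quasi-likelihood test at a Benjamini-Hochberg adjusted p under 0.05 and a log2 difference of 1 or more in either direction, beside 59.1% of all genes tested. In sheep sperm 8 of 9 members were called, 5 higher and 3 lower, beside 74.2% of all genes. In rat ovary 2 of 10 were called against female brain, HSPA5 higher and HSPA4L lower, beside 56.9%. Ovary differed from rat sperm in 4 of 10 members, beside 50.8%. A share of called members near the share of all genes, as in sheep sperm and rat sperm, says nothing particular about these genes. The median log2 fold change in rat sperm was 3.69 over the 3 germ-cell members and -0.06 over the other 7, against -0.03 over all genes. In sheep sperm the median was 1.98 over the 3 and 0.93 over the other 6, against -0.42 over all genes. The 1.98 is the value of HSPA4L, which turned negative on plain totals, where the median over all genes was -2.84. In ovary against brain the order was the other way round, at -0.41 and 0.42, against 0.02 over all genes.

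HSPA1L, a testis-enriched HSP70, was a low message in every rat tissue but sperm. Its level was 1.41, 1.73 and 2.14 CPM (lowest, median and highest) in the 15 male brains and 1.28, 1.72 and 2.31 CPM in the 14 female brains. In the 14 ovaries it was 0.921, 1.48 and 2.499 CPM. In the 15 rat sperm libraries it was 2.85, 6.77 and 805 CPM. All 15 sperm libraries lay above all male brains, but 4 of them stood far above the rest: library 14 at 805, library 7 at 350, library 3 at 146 and library 13 at 118 CPM, with the other 11 at 2.85 to 16.9 CPM. On plain totals the lowest sperm libraries overlapped brain. The log2 difference from male brain was 6.13 ± 0.90 (SE; edgeR, Benjamini-Hochberg adjusted p = 3.25e-07). Without those 4 libraries, a setting chosen after seeing the data, it was 2.13 (adjusted p = 1.13e-09), so the size of the difference rested on them while the call did not. With the animal as a block it was 2.97 (adjusted p = 0.000913), and with limma's voom and quality weights 2.46.

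HSPA1L lies on chromosome 20 of GRCr8 from 3853496 to 3860223, and its end overlaps the stress-inducible HSPA1A by 468 bases, so counts of these neighbours are uncertain where the strand setting of the counting is not given. In rat sperm HSPA1A did not follow it: in library 7 HSPA1A was at its lowest sperm value of 11.8 CPM, in library 14 it was at 40.6 CPM, and its highest value of 369 CPM was in library 15. In ovary both were high in the same animals: 20 to 24 held the 5 highest values of each, 72.2 to 102.1 CPM for HSPA1A and 1.90 to 2.499 CPM for HSPA1L.

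HSPA2, which helps take apart the synaptonemal complex in spermatocytes, is also made outside the testis. Its rat brain levels were 11.6, 15.2 and 18.6 CPM in males and 12.3, 15.5 and 19.6 CPM in females, and ovary was at 7.23, 12.1 and 15.6 CPM. Rat sperm ran from 2.65 through 27.9 to 996 CPM and overlapped brain at its lower end. The same 4 libraries were highest, at 996 (library 14), 720 (7), 286 (3) and 146 CPM (13), with the other 11 at 2.65 to 53.9 CPM. The log2 difference from male brain was 3.69 ± 0.71 (edgeR, adjusted p = 2.47e-05). This call rested on a few libraries: without those 4 the difference was 0.72 (adjusted p = 0.0243), below the fold minimum, with voom it was 0.94 (adjusted p = 0.00595), and with the animal as a block it was 1.35 (adjusted p = 0.0818).

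HSPA4L, an HSP110-type chaperone that also serves as an exchange factor for HSP70, differed in kind from the other 2, because rat brain held much of it. Male brains were at 115, 145 and 183 CPM and female brains at 137, 163 and 190 CPM. Rat sperm was at 8.82, 21.7 and 751 CPM. Libraries 14, 7 and 3, at 751, 343 and 165 CPM, reached or passed the male brain range, and the other 12 lay below it, at 8.82 to 93.6 CPM. The fitted log2 difference was -0.14 ± 0.56 (edgeR, adjusted p = 0.825), an average over libraries far above and far below brain, and it was 0.00 without libraries 16 and 17, which hold few low counts. Without libraries 3, 7, 13 and 14 it was -2.49 (adjusted p = 1.25e-09), with voom it was -2.83 (adjusted p = 9.60e-13), and with the animal as a block it was -1.97 (adjusted p = 0.00263). By these 3 it fell.

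**Figure D1:**
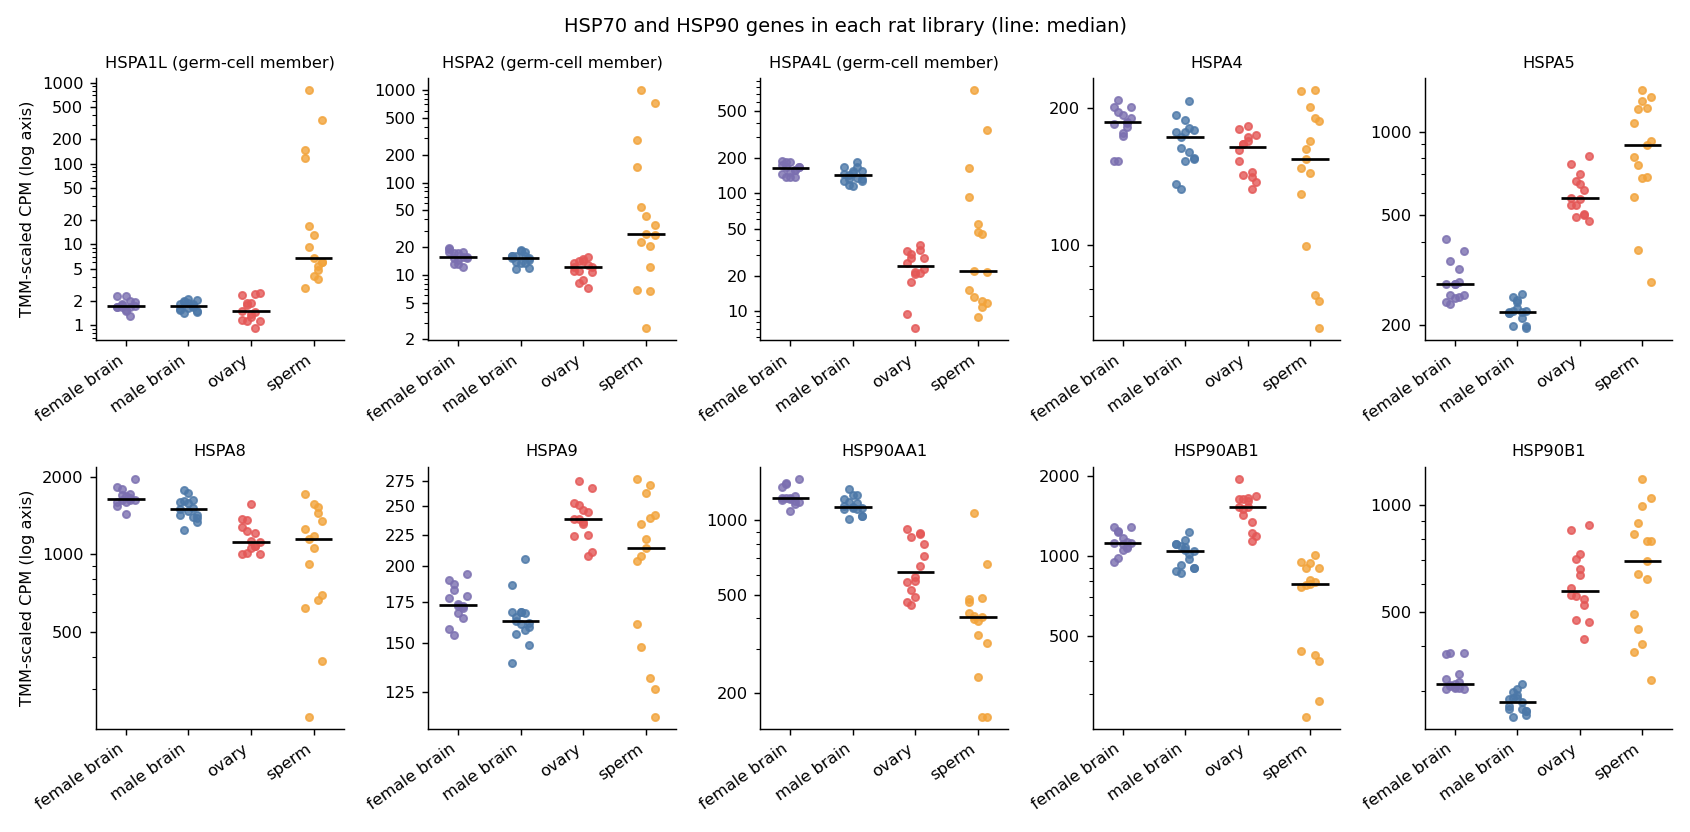
Level of each gene in every rat library, as TMM-scaled CPM on a log axis, by group (female brain, male brain, ovary, sperm), with 1 point per library. Brain and ovary points cluster tightly, whereas HSPA1L, HSPA2 and HSPA4L spread over sperm libraries from 2.85 to 805, 2.65 to 996 and 8.82 to 751 CPM.

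The 4 sperm libraries that were high for these genes were also highest by the mean of the late spermatid list. The mean log2(CPM + 1) of the 12 late spermatid markers was 11.0 in library 14, 10.4 in 7, 9.28 in 3 and 7.84 in 13, and 3.57 to 7.24 in the other 11, against 0.893 to 1.08 in male brain. By summed CPM the order differed: library 10, lowest for HSPA2, had 10974 CPM, above library 3 (10632). Libraries 16 (4137) and 15 (3926) also lay above library 13 (3630). HSPA4L followed this list closely over the 15 libraries. Its Pearson r was 0.978 and its Spearman rho 0.961, both with a 2-sided permutation p of 1e-05, the smallest that 100000 resamples can give (Benjamini-Hochberg adjusted over the 10 correlations computed, p = 5e-05 and 0.0001). Without the 2 libraries farthest from the median of the list, 14 and 7, its r was 0.959. HSPA1L gave r = 0.908 (permutation p = 1e-05, adjusted p = 5e-05) and rho = 0.821 (permutation p = 0.00032, adjusted p = 0.0016), with r = 0.790 without those 2. HSPA2 gave r = 0.737 (permutation p = 0.00195, adjusted p = 0.00325) and rho = 0.557 (permutation p = 0.0344, adjusted p = 0.0430). Its r fell to 0.426 without libraries 14 and 7, so the relation for HSPA2 rested on them.

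Apart from HSP90AA1, the other members had a negative r with the list. HSP90AB1 had r = -0.795 (permutation p = 0.0007, adjusted p = 0.0014), HSPA5 -0.794 (permutation p = 0.00055, adjusted p = 0.0014) and HSPA8 -0.792 (permutation p = 0.0006, adjusted p = 0.0014). Without libraries 14 and 7 these were weaker, at -0.535, -0.533 and -0.498, so their size rested in part on those libraries. HSP90B1, HSPA9 and HSPA4 had r of -0.645, -0.582 and -0.553, which on plain totals were -0.33, -0.23 and -0.36 and no longer passed the adjusted threshold. HSP90AA1 had r = 0.474 (permutation p = 0.0743, adjusted p = 0.0743) and -0.03 without libraries 14 and 7, but on plain totals it had r = 0.70 (adjusted permutation p = 0.00868), and without libraries 16 and 17 r = 0.63 (adjusted permutation p = 0.0202).

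The genes whose levels were most like the germ-cell members over the 15 rat sperm libraries were found among 9388 genes with a mean of at least 10 CPM. For HSPA1L they were C2H4ORF17 (Pearson r = 0.997), ELAPOR1 (0.995) and BPI (0.995). For HSPA2 they were GTF2A1L (0.966), STK33 (0.958) and PSMC3IP (0.956). PSMC3IP is a factor of meiotic recombination and GTF2A1L a testis form of a general transcription factor. For HSPA4L they were ACTL7A (0.991), a spermatid actin-like gene, SLFNL1 (0.988) and SH3GL3 (0.988). Between the members r was 0.926 for HSPA1L and HSPA2, 0.925 for HSPA1L and HSPA4L and 0.775 for HSPA2 and HSPA4L. The mean log2(CPM + 1) of listed spermatocyte markers was also highest in libraries 14 (4.98), 7 (4.23), 3 (2.80) and 13 (2.51). Library 9 was next, at 1.64. By summed CPM library 15 (113) lay above 13 (87.9) and 3 (84.6). These are descriptions over libraries that share their differences in spermatid and spermatocyte RNA, and the part of each was not tested.

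In sheep sperm the 3 germ-cell members did not move as 1 group. HSPA1L was at 47.2, 7.05, 7.17, 12.7 and 64.1 CPM in sheep 687, 688, 690, 694 and 699, against 1.09, 2.42 and 7.64 CPM over the 50 brain libraries. The sperm of 687, 694 and 699 lay above all brain libraries and that of 688 and 690 within the top of the brain range. The log2 difference was 3.60 ± 0.20 (edgeR, adjusted p = 1.57e-22), and 0.88 on plain totals. The SE and p of each sheep sperm difference come from 1 fit over all 55 sheep libraries, without an animal term. They draw on the spread of the 50 brain libraries too, so they do not measure the spread of the 5 sperm samples alone. HSPA4L was at 398, 17.4, 89.3, 54.9 and 556 CPM in the same order, against 32.5, 60.4 and 101 CPM in brain. Here 687 and 699 were far above brain and 688 below it. Its log2 difference was 1.98 ± 0.25 (edgeR, adjusted p = 3.58e-10), or 1.25 without 699, and it turned to -0.80 on plain totals.

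HSPA2 had at most 50 counts in any sheep sperm library, and its levels there overlapped those of brain. It was at 0, 1.22, 3.29, 4.93 and 0 CPM, from 0, 17, 11, 50 and 0 counts, against 1.43, 4.40 and 105 CPM in brain. The log2 difference was -1.90 ± 0.64 (edgeR, adjusted p = 0.00600), with a range of -2.95 (without 694) to -1.39 (without 699) when 1 sheep was left out. The call was lost with upper quartile factors (-1.15, adjusted p = 0.0878) and with voom (-2.63, adjusted p = 0.405). The late spermatid list was highest in the sperm of 699 and 687, at 7.34 and 6.95, and lowest in 688, at 2.55, where the squamous list was highest. HSPA1L and HSPA4L were also highest in 699 and 687. With 5 sheep no correlation was computed.

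Of the 3 germ-cell members only HSPA4L was called in ovary against female brain. HSPA4L fell from female brain to ovary, where it was at 7.16, 24.2 and 36.5 CPM, with no overlap (log2 difference -2.74 ± 0.17; edgeR, adjusted p = 1.99e-15). HSPA2 differed by -0.41 ± 0.10, below the fold minimum (adjusted p = 0.000283), and HSPA1L by -0.12 ± 0.15 (adjusted p = 0.447). Oocyte markers (7 of 7) and granulosa markers (7 of 7) were higher in ovary than in brain, and PRM1, TNP1 and SMCP of the spermatid list were at 0 there. Against rat sperm all 3 were lower in ovary, HSPA1L by -6.24 ± 0.97 (adjusted p = 1.42e-06), HSPA2 by -4.07 ± 0.78 (adjusted p = 3.04e-05) and HSPA4L by -2.45 ± 0.64 (adjusted p = 0.00127) on the log2 scale. The last of these rested on the 4 spermatid-rich libraries. Without them HSPA4L differed by -0.30 (adjusted p = 0.393), HSPA1L by -2.39 and HSPA2 by -1.23.

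The promoter of HSPA2 is shown for the heat shock element, the inverted repeat of GAA units that heat shock factors bind. Promoters were the RefSeq windows of GRCr8, 250 bases before to 50 after the start listed for each window. Of the 10 members 9 were among its 33469 windows. The letters TTCNNGAA, searched on both strands, were in 8.77% of all windows and in those of HSPA2, HSPA4L, HSPA8 and HSPA9. The stretch of HSPA2 at chr6:100864367-100864396 on the plus strand holds the match, with the 2 units in capitals. It begins 64 bases before the start listed for the window. That start is not the first annotated base of the gene, which spans 100864172 to 100866946, so the match lies inside the annotated gene.

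HSPA2: gctctgagagtTTCcaGAAggcagggggtg

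HSPA5 (BiP), the HSP70 of the ER and the main sensor partner of the unfolded protein response, was higher in rat sperm and ovary than in brain. Male rat brains were at 195, 222 and 259 CPM and rat sperm at 286, 896 and 1410 CPM, and ovary was at 476, 573 and 819 CPM against 239, 280 and 408 CPM in female brain. Neither reproductive group overlapped its brain group. The log2 difference was 2.10 ± 0.16 in rat sperm (edgeR, adjusted p = 2.02e-13) and 1.06 ± 0.09 in ovary (adjusted p = 5.28e-12). In sheep sperm it was at 163, 2929, 659, 171 and 458 CPM in 687, 688, 690, 694 and 699, against 131, 166 and 244 CPM in brain. Sheep 688 stood far above the others and 687 and 694 lay within the brain range. The log2 difference of 2.55 ± 0.21 (adjusted p = 4.19e-16) was 1.28 without 688. On plain totals it was 0.25, and 0.97 with the 4 placeholder entries also left out, and neither was called.

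HSP90B1 (GRP94), the HSP90 of the ER, went with it. Rat sperm was at 321, 697 and 1182 CPM and male brain at 253, 279 and 314 CPM, with no overlap (log2 difference 1.43 ± 0.14; edgeR, adjusted p = 6.60e-11). Ovary, at 419, 572 and 877 CPM, lay above all female brains, at 303, 313 and 383 CPM, by 0.91 ± 0.09, just under the fold minimum (adjusted p = 1.24e-10). In sheep sperm it was at 658, 926, 1221, 216 and 879 CPM in 687, 688, 690, 694 and 699, against 221, 267 and 455 CPM in brain. Sheep 694 lay below the lowest brain library and the other 4 above the highest. The log2 difference was 1.65 ± 0.13 (adjusted p = 5.20e-17) and turned to -0.84 on plain totals, or 0.49 with the 4 placeholder entries left out.

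The promoters of these ER members are shown because they alone of the 9 members searched, which leave out HSP90AA1, held the ER stress element, whose letters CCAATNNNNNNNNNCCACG, on either strand, were in 0.0657% of all windows. HSPA5, at chr3:38452766-38453015 on the plus strand, had 1 match that began 43 bases before the start. HSP90B1, at chr7:23012294-23012543 on the minus strand, had 2, that began 176 and 72 bases before it and lie on opposite strands. Both are printed in the direction of transcription with the matched letters in capitals. The CCAAT letters alone were in 37.5% of all windows and in those of 6 members. A match is a description of these letters, not of binding.

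HSPA5: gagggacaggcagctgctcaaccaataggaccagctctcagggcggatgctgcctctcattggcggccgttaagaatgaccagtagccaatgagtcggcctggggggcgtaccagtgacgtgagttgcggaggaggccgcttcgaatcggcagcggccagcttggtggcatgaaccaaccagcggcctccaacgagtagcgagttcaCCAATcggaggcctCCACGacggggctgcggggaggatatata

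HSP90B1: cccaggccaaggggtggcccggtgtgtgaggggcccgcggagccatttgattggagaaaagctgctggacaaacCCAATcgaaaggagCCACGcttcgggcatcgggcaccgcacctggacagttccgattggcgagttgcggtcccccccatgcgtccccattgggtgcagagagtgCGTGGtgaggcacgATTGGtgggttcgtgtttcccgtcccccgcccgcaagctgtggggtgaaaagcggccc

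Female and male rat brains differed in the same ER pair. HSPA5 was 290 ± 51.2 CPM (SD, n = 14) in females and 224 ± 19.3 CPM (SD, n = 15) in males, and the groups overlapped. The highest female values were 408, 369 and 341 CPM in animals 21, 25 and 22. The log2 difference was 0.37 ± 0.07 (edgeR, adjusted p = 0.00852). HSP90B1 was 328 ± 30.9 CPM in females and 279 ± 17.7 CPM in males, a difference of 0.23 ± 0.04 (adjusted p = 0.0143). These were 2 of 10 members called at an adjusted p under 0.05 with no fold minimum, beside 0.180% of all genes, 37 of 20570. The other 8 members differed by 0.02 to 0.16, and none passed. Of the 8 listed ER stress sensors and factors XBP1, a transcription factor of the unfolded protein response, was called, at 0.23 ± 0.05.

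Ribosomal RNA moved with this difference. Its entries held a median of 11.8% of counts in female and 3.07% in male brain. Without the libraries where they held over 10%, a setting chosen after seeing the data that left 6 females and 12 males, HSPA5 differed by 0.30 (edgeR, adjusted p = 0.112) and HSP90B1 by 0.21 (adjusted p = 0.117). No member was then called, and 45 genes were. Animal 25, second highest for HSPA5, had 3.74% of its counts in these entries, and animal 22 had 54.0%. The part of rRNA content in the difference was not tested.

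HSPA8 (HSC70), the constitutive HSP70 of the cytosol, was listed at 0 in all 55 sheep libraries and is described in rat. It was at 1237, 1500 and 1767 CPM in male brain, 1431, 1641 and 1956 CPM in female brain, 1003, 1119 and 1570 CPM in ovary and 235, 1149 and 1715 CPM in sperm. Both reproductive groups overlapped their brains. The log2 differences of -0.42 ± 0.18 in sperm (edgeR, adjusted p = 0.0369) and -0.49 ± 0.07 in ovary were below the fold minimum. HSPA8 has many near-identical copies in mammalian genomes, which makes its counts uncertain. Its rat promoter is printed as the member with the 3-unit heat shock element, GAANNTTCNNGAA on either strand, which 0.798% of all windows held. Matches began 213 and 55 bases before the start of the gene, at chr8:50080264-50080513 on the plus strand, and their GAA and TTC units are in capitals.

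HSPA8: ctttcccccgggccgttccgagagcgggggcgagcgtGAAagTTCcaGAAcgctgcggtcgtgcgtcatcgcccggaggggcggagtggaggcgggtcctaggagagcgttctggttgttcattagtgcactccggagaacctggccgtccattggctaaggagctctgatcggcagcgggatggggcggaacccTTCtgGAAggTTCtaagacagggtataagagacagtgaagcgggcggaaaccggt

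HSPA4, the widely made relative of HSPA4L, and HSPA9 (mortalin), the HSP70 of the mitochondrial matrix, fell in sheep sperm and were not called in rat sperm. HSPA4 was at 0.248, 14.5, 12.2, 6.31 and 6.66 CPM in sperm of 687, 688, 690, 694 and 699, against 84.2, 122 and 162 CPM in brain. HSPA9 was at 9.56, 8.57, 9.86, 6.51 and 13.95 CPM, against 98.8, 130 and 169 CPM. Every sheep sperm library lay below every brain library for both, also on plain totals. The log2 differences were -3.79 ± 0.31 for HSPA4 (edgeR, adjusted p = 3.40e-16) and -3.61 ± 0.15 for HSPA9 (adjusted p = 3.13e-27). In rat sperm HSPA4 was at 65.7, 154 and 219 CPM against 133, 173 and 207 CPM in male brain, and HSPA9 at 114, 214 and 277 CPM against 139, 163 and 205 CPM. These overlapped, with log2 differences of -0.06 ± 0.14 (adjusted p = 0.684) and 0.41 ± 0.11 (adjusted p = 0.000983, below the fold minimum). In ovary HSPA9, at 207, 239 and 275 CPM, lay above every female brain (154, 173 and 194 CPM), and HSPA4, at 133, 164 and 182 CPM, overlapped it (153, 186 and 208 CPM). Their log2 differences, 0.47 ± 0.05 and -0.21 ± 0.06, were below the fold minimum.

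The cytosolic HSP90 pair shifted toward HSP90AA1, the stress-inducible form that is also made in male germ cells, in sheep sperm. HSP90AA1 was at 10062, 16601, 23684, 10114 and 12884 CPM in sperm of 687, 688, 690, 694 and 699, against 866, 1340 and 2451 CPM in brain. All 5 lay above all 50 brain libraries, while on plain totals (1244 to 5787 against 1039 to 2512 CPM) they overlapped. The log2 difference was 3.60 ± 0.11 (edgeR, adjusted p = 2.98e-33), and 1.19 on plain totals. HSP90AB1, the constitutive form, was at 777, 584, 708, 375 and 797 CPM, within the brain range of 334, 603 and 880 CPM. Its log2 difference was 0.20 ± 0.15 (adjusted p = 0.200), and it turned to -2.32 on plain totals.

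A share of counts within the pair does not depend on library scaling. HSP90AA1 took 92.8 to 97.1% of the counts of both genes in the 5 sheep sperm libraries and 62.2 to 83.1% (median 67.7%) in sheep brain, with no overlap. In rat the share was 53.4% in male brain, 52.5% in female brain, 29.5% in ovary and 32.4% in sperm, as medians. Rat sperm libraries 14, 7 and 3, at 81.3, 70.02 and 51.5%, stood apart from the other 12, at 22.9 to 35.5%. HSP90AA1 fell in rat sperm as a group, from 1013, 1129 and 1338 CPM in male brain to 160, 406 and 1071 CPM (log2 difference -1.27 ± 0.21; edgeR, adjusted p = 2.36e-06). Its highest sperm value, 1071 CPM, was in library 14. HSP90AB1 was at 247, 783 and 1009 CPM in rat sperm against 857, 1045 and 1229 CPM, a difference of -0.45 ± 0.16 (adjusted p = 0.0102) below the fold minimum.

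In ovary the pair shifted toward HSP90AB1, the other way from sheep sperm and the same way as the median of rat sperm. HSP90AA1 was at 454, 620 and 923 CPM, below every female brain (1094, 1230 and 1471 CPM), by -0.90 ± 0.11 (edgeR, adjusted p = 4.03e-09), under the fold minimum. HSP90AB1 was at 1135, 1526 and 1946 CPM against 944, 1116 and 1288 CPM, a difference of 0.42 ± 0.07. Against rat sperm HSP90AB1 was higher in ovary, with no overlap, by 1.11 ± 0.15 (adjusted p = 8.55e-08), but it lost its call without the 4 spermatid-rich libraries (0.69), with voom (0.88) and without the low-count filter (0.99). Both genes have near-identical copies elsewhere in mammalian genomes, and how reads that map to several places were counted is not given in the sources used here.

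The HSP110-type pair was also uneven in sperm. HSPA4L took 99.9, 54.5, 87.9, 89.7 and 98.8% of the counts of HSPA4L and HSPA4 in sperm of 687, 688, 690, 694 and 699, and 18.2 to 40.0% in sheep brain. In rat sperm the share was 88.3% in library 14, 82.0% in 7, 56.0% in 3 and 38.8% in 13, with a median of 19.0% over all 15. Male brain was at 42.9 to 48.2% and ovary at 3.99 to 20.6%. Libraries 14, 7 and 3 thus lay above brain and the other 12 below it. The 3 germ-cell members held 49.3% of the counts of all 10 members in library 14, 39.8% in 7, 17.7% in 3 and 7.09% in 13, against a median of 1.70% over rat sperm and 3.40% in male brain. The Wilson 95% interval of a single share was at most 9.22 percentage points wide, which covers counting error only.

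**Figure D2:**
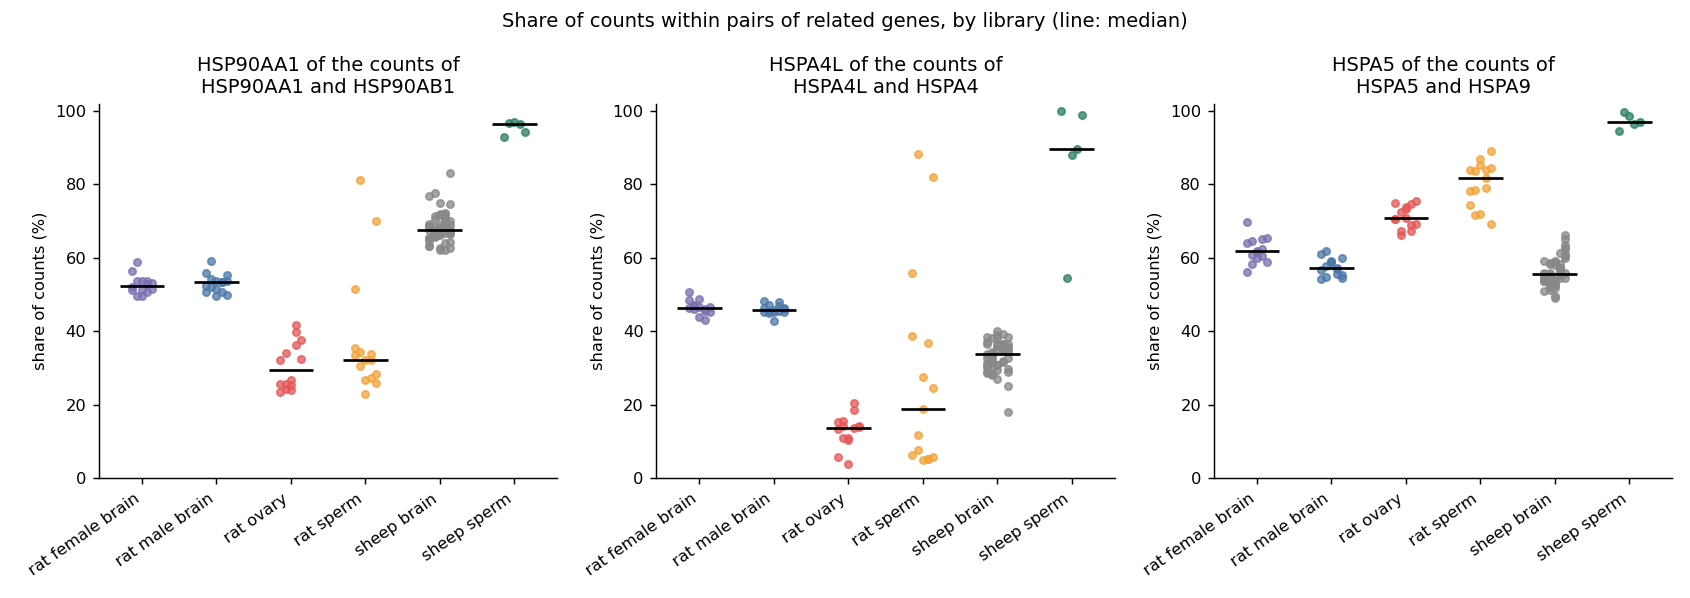
Share of counts, in percent, taken by HSP90AA1 within the HSP90AA1 and HSP90AB1 pair, by HSPA4L within the HSPA4L and HSPA4 pair and by HSPA5 within the HSPA5 and HSPA9 pair, with 1 point per library in each group. Sheep sperm lies at 92.8 to 97.1% for HSP90AA1, above sheep brain, and rat sperm spreads from 22.9 to 81.3%.

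Among the 10 sheep brain regions 15 of 90 pairs of a member and a region were called by edgeR at a Benjamini-Hochberg adjusted p under 0.05 against the mean of the other 9 regions, with no fold minimum. Of all genes 3.36 to 60.7% were called, depending on the region, so this count is not read as particular to these genes. HSPA2 varied most. It was at 16.5, 50.7, 25.3, 19.0 and 41.0 CPM in the pons of 687, 688, 690, 694 and 699 and at 31.6, 27.9, 19.8, 13.9 and 22.3 CPM in the basal ganglia, but at 1.54 to 2.78 CPM in the prefrontal, 1.43 to 3.58 CPM in the posterior parietal and 1.67 to 4.42 CPM in the visual cortex. Pons and basal ganglia of all 5 sheep lay above all of those 3 cortices. The hippocampus was uneven, at 26.3, 105, 4.24, 14.2 and 5.98 CPM. In the entorhinal cortex 699 stood out, at 50.1 CPM against 3.31 to 12.8 CPM in the other 4.

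The log2 difference of HSPA2 was 2.28 ± 0.37 in the pons (edgeR, adjusted p = 1.51e-06) and 1.81 ± 0.38 in the basal ganglia (adjusted p = 0.000240). The hippocampus gave 2.28 ± 0.37 (adjusted p = 2.58e-05), but 0.95 without 688 (adjusted p = 0.1252). It was lower in the prefrontal cortex by -2.11 ± 0.55 (adjusted p = 0.0122), in the posterior parietal cortex by -1.87 ± 0.53 (adjusted p = 0.0183) and in the visual cortex by -1.67 ± 0.52 (adjusted p = 0.0490). The first 2 of these lost their call without 687 (adjusted p = 0.0792 and 0.0695), the posterior parietal cortex also without 690 (0.0541), and the visual cortex without any of 687, 688, 690 and 699 and with the animal as a block (-1.58, adjusted p = 0.0530).

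HSPA1L also peaked in the pons, at 3.94, 5.38, 5.56, 5.46 and 7.64 CPM, a log2 difference of 1.33 ± 0.17 (edgeR, adjusted p = 7.25e-09). HSPA1A was highest in the pons too, at 175 to 461 CPM, with 699 the highest for both genes. The cerebellum, at 2.85 to 3.99 CPM, was next, with 0.52 ± 0.18 (adjusted p = 0.0109), or 0.49 and adjusted p = 0.0530 without 690. The other called differences were under 0.5 on the log2 scale: HSP90B1 in the basal ganglia (0.35), HSP90AA1 in the cerebellum (-0.28), motor cortex (0.42) and pons (0.31), and HSPA4 (0.24), HSPA9 (0.24) and HSP90AB1 (-0.37) in the pons. The pons thus had 6 of 9 members called, beside 48.3% of all genes. The cerebellum had 2, beside 60.7%, the basal ganglia 2, beside 27.6%, the hippocampus 1, beside 11.0%, and the motor cortex 1, beside 3.55%. The prefrontal, posterior parietal and visual cortex had 1 each, HSPA2, beside 6.31, 10.4 and 5.65%. No member was called in the entorhinal (3.36% of all genes) or frontal cortex (7.85%).

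The part of the cell mix in the regional differences was not tested. Over the 50 libraries the genes most like HSPA2, found after the data were seen among 8854 genes, were JPH1 (r = 0.856), SPATA13 (0.835) and ARRDC4 (0.799).

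Whether the sperm to brain difference itself differed between species was tested in 1 fit over the symbols present once in each table. Species and library preparation cannot be told apart, since sheep RNA was extracted with TRIzol and made into libraries with a Kapa kit and rat RNA with a Zymo and a Watchmaker kit. In this fit 4 of 9 members were called, beside 62.3% of all genes. The difference was larger in sheep for HSP90AA1, by 4.87 ± 0.45 (log2; edgeR, adjusted p = 3.23e-12), and lower in sheep for HSPA2, by -6.26 ± 1.47 (adjusted p = 0.000310), HSPA9, by -4.03 ± 0.19 (adjusted p = 9.27e-20), and HSPA4, by -3.70 ± 0.45 (adjusted p = 3.09e-09). HSPA1L (-2.73 ± 1.36, adjusted p = 0.0765) and HSPA4L (2.01 ± 1.10, adjusted p = 0.107) did not pass. Without the 4 spermatid-rich rat libraries HSPA1L turned to 1.34 (adjusted p = 0.0189) and HSPA4L became 4.38 (adjusted p = 4.47e-07). With the animal as a block HSPA4L was 2.96 (adjusted p = 0.0225). HSPA2 lost its call with voom (-4.25, adjusted p = 0.192). HSPA5 (0.42 ± 0.49, adjusted p = 0.468) turned to -0.79 without sheep 688 and -0.64 on plain totals, and HSP90B1 (0.20 ± 0.32, adjusted p = 0.604) to -0.24 on plain totals.

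The chaperone partners were taken from lists by role, and their counts stand beside the 74.2% of all genes called in sheep sperm, 59.1% in rat sperm and 56.9% in ovary. Of 23 J-domain proteins tested in sheep sperm 10 were higher and 8 lower than in brain (6 and 15 on plain totals). Of 21 tested in rat sperm 7 were higher and 2 lower (7 and 3 on plain totals). DNAJB8, a testis-rich member, was at 281 ± 229 CPM (SD, n = 5) in sheep sperm and 128 ± 192 CPM (SD, n = 15) in rat sperm, and it had no counts in any male rat brain. DNAJB3, another testis member, was at 171 ± 317 CPM in rat sperm against 2.30 ± 0.39 CPM in male brain (log2 difference 6.51 ± 0.75), and DNAJB7 rose in sheep sperm by 11.04 ± 0.31. DNAJC6 (auxilin), which helps HSPA8 uncoat synaptic vesicles, fell in all 3 comparisons with brain, by 7.79 in sheep sperm, 3.84 in rat sperm and 5.28 in ovary on the log2 scale. In ovary 1 J-domain protein of 20 was higher, DNAJC3, an ER partner of HSPA5 (1.24 ± 0.06), and 6 were lower.

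Of the HSP90 and HSP70 co-chaperones in sheep sperm 13 of 18 were lower and 0 higher, a share called near the 74.2% of all genes, with a median log2 difference of -1.61 against -0.42 over all genes, FKBP4 by -5.26 ± 0.31. In rat sperm 2 were higher and 2 lower of 18 (1 and 5 on plain totals), beside 59.1% of all genes, with a median of -0.32 against -0.03. FKBP5, a steroid receptor immunophilin and glucocorticoid target, was at 339 ± 137 CPM in rat sperm and 29.3 ± 4.05 CPM in male brain, and at 207 ± 43.3 CPM in ovary and 28.8 ± 3.41 CPM in female brain. Its log2 differences were 3.62 ± 0.21 and 2.85 ± 0.10. STIP1, which hands clients from HSP70 to HSP90, and AHSA1, which activates HSP90, fell in rat sperm by 1.17 and 1.04. Across these lists no other gene but XBP1 differed between female and male brain.

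None of the following counts is read as particular to its list, since 74.2, 59.1 and 56.9% of all genes were called in sheep sperm, rat sperm and ovary. Nucleotide exchange factors were higher for 3 of 10 and lower for 2 in sheep sperm (0 and 7 on plain totals). In rat sperm 5 and 1 of 9 were (4 and 2 on plain totals), and in ovary 2 and 0 of 9. SIL1, the exchange factor of HSPA5, rose in sheep sperm by 3.55 ± 0.13 (0.84 and not called on plain totals) and in ovary by 1.13 ± 0.07, and BAG1 rose in rat sperm by 2.48 ± 0.30. Of the other HSP70 genes 3 were higher and 1 lower of 7 in sheep sperm (2 and 5 on plain totals), 2 and 3 of 8 in rat sperm and 4 and 3 of 8 in ovary. HSPA12A fell in all 3, and the stress-inducible HSPA1A and HSPA1B, near-identical in sequence, rose in ovary by 2.06 ± 0.22 and 1.96 ± 0.23. TRAP1, the mitochondrial HSP90, fell in sheep sperm by 4.05 and was not called in rat sperm or ovary. Heat shock factors were lower for 3 of 5 in sheep sperm (5 on plain totals), among them HSF1 (-1.95 ± 0.14). Of ER stress factors 5 of 7 were higher in rat sperm (2 on plain totals). In sheep sperm 4 of 7 were higher and 3 lower (0 and 5 on plain totals), and ERN1, an ER stress sensor, rose in ovary by 1.91 ± 0.09.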

How the data were processed

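Stranded mRNA libraries, 55 of sheep and 58 of rat, were read from both ends. Per the labels, reads were trimmed with Trimmomatic 0.39, aligned with STAR 2.7.5a to GRCr8 or ARS-UI_Ramb_v3.0 and counted with Rsubread 2.20.0, and the deposited values are raw counts per gene. The sources used here do not give the strand setting or the handling of multiply mapped reads. The 10 genes and all lists were chosen with earlier results of these data known.

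Counts were fitted over all genes with edgeR 4.0.16 (quasi-likelihood test, TMM factors, filterByExpr by group, Benjamini-Hochberg adjustment) in R 4.3.3, and alternatives used DESeq2 1.42.0 and limma 3.58.1. Scripts were tested on simulated counts. All sheep libraries shared a fit in which sperm was compared with the average region, and SEs were computed back from the F statistic. The main fits had no animal term, so the regions of a sheep entered as separate libraries. For the species term the regions of each sheep were summed. A gene was called at adjusted p under 0.05 and a log2 difference of 1 or more in size, without the fold minimum between regions and sexes. HSPA8 was left out of sheep tests. Correlations used log2(CPM + 1) and 100000 resamples (SciPy 1.17.1).

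All 10 genes are named in every comparison with tissue, sex and species. For regions the rule names pairs past a log2 difference of 0.5 (the smaller ones are named besides). For each partner list it names per direction up to 2 called genes, by size of change, with no overlap between groups and at least 10 CPM in the higher group. XBP1 between the sexes and TRAP1 in rat fall outside it and were chosen after their values were seen.

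Replicate numbers mark the same animal in brain and reproductive samples, so they pair the samples. Same-animal correlations of deviations were near 0 for rat sperm and brain (median 0.03), rat ovary and brain (0.01) and sheep sperm and frontal cortex (0.03), and 0.34 to 0.48 for frontal and visual cortex. Correlations of members with brain cell marker lists across sheep regions are not reported here.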

Additional observations from a re-analysis of the deposited data

Results flagged for a closer look

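Single sheep stood apart from the other 4 of their group in 6 of 99 values tested by Dixon's gap, and chance flags about 1 in 20 groups. HSPA2 was at 105 CPM in the hippocampus of sheep 688 (others 4.24 to 26.3) and at 50.1 CPM in the entorhinal cortex of 699 (others 3.31 to 12.8). HSPA5 was at 2929 CPM in the sperm of 688 (others 163 to 659). HSP90AA1 was at 970 CPM in the cerebellum of 687 (others 1168 to 1242). HSP90AB1 was at 687 CPM in the motor cortex of 690 (others 799 to 833) and at 815 CPM in its prefrontal cortex (others 522 to 589).

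The sperm to brain difference was itself different between sheep and rat, by edgeR's test of the species by tissue term, for 5 members: HSP90AA1 (4.87 on the log2 scale, sheep minus rat), HSPA2 (-6.26), HSPA9 (-4.03), HSPA4 (-3.70) and HSP90AB1 (0.65, Benjamini-Hochberg adjusted p = 0.0317, below the fold minimum). With the fold minimum 4 of these members were called, beside 62.3% of all genes. The share of all genes without that minimum is not given here, so the count is not read as particular to these genes. Species and library preparation cannot be told apart in these species differences.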

How the results depend on the processing

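Direction and side of the threshold held in 546 of 623 member values recomputed under other settings, 30 lost and 21 gained the threshold, and 26 turned. Plain totals and the settings without rRNA-rich brains, without placeholder entries and without rat sperm libraries 3, 7, 13 and 14 were added after seeing the data. The cause of a change was not tested.

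Scaling set the sheep sperm results: with plain totals 1 member was higher and 4 lower (5 called), 3249 genes were higher and 15084 lower against 7239 and 8976, and the median over all genes moved by -2.42. HSP90B1 turned to -0.84, HSPA4L to -0.80 and HSP90AB1 to -2.32 (-0.82 without the 4 placeholder entries, where 5349 genes were higher and 12042 lower). With upper quartile factors 8907 were higher and 6980 lower, and with DESeq2 9937 and 8132. For the species difference 3619 genes were higher and 5827 lower, but 5044 and 3978 with RLE factors and 5530 and 4105 with DESeq2, which each called 8 members, and 4766 and 4376 with upper quartile factors.

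Counts of genes called rose to 22067 without the low-count filter and 18427 with DESeq2 in rat sperm, to 18799 without the filter in ovary, and to 19449 and 16049 in ovary against sperm, where voom called 2 members. Between the sexes a fold minimum left 12 genes and 0 members, DESeq2 called 157 genes, and 0 members were called without brains over 10% rRNA, where HSPA1L turned to -0.0526. Across regions a fold minimum left 16131 genes and 7 pairs, and leaving out 1 sheep gave 8 to 13 pairs, with 8 without 687 and 8 without 690.

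In rat sperm HSPA4L turned to 0.00 (0.00396) and HSPA4 to 0.0510 without libraries 16 and 17, and HSPA4 to 0.0389 without 3, 7, 13 and 14 and 0.13 with voom. In ovary against sperm HSPA4L turned to 0.29 with voom and HSP90B1 to 0.10 on plain totals. Without the 4 libraries HSPA8 turned to -0.28, HSPA4 to -0.26 and HSPA9 to -0.11. With voom HSPA8 turned to -0.0332 and HSPA4 to -0.10, and HSPA4 to -0.0403 without the filter and -0.0283 without 16 and 17. In the species difference HSPA1L turned to 1.34 without the 4 libraries and 0.44 with voom. HSPA5 turned to -0.53 with voom and -0.64 on plain totals, and it ranged from -0.79 (without 688) to 0.73 (without 694) when 1 sheep was left out. HSP90B1 turned to -0.24 on plain totals and ranged from -0.00806 (without 690) to 0.49 (without 694).

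With the replicate block on the animal, HSPA2 in rat sperm (1.35) lost its call and HSPA4L (-1.97) gained one, the count there stayed at 5, HSPA5 in the species difference turned to -0.46, and 19 in place of 15 region pairs were called.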
